A study of Rattus norvegicus with 10 samples.

Results

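Dbp, Tef, Per1, Per2, Per3, Nr1d1, Nr1d2, Clock, Cry1 and Bhlhe40, genes of the circadian clock and its direct outputs, were followed across cultures of ventricular heart muscle cells of newborn Lewis rats. Every probe set that the array annotation gives to 1 of these 10 genes alone was taken, which gave 19 of the 31042 probe sets measured, and 18 of the 23281 past the filter on low values. The arrays measured the RNA of cultures that were electrically pulsed with blebbistatin added (n = 3 arrays), pulsed (n = 4), or nonpulsed and untreated (n = 3). Pulsing lasted 3 days at 1 Hz and 2 V/cm, after a recovery phase, and blebbistatin, which inhibits myosin and stops contraction, was given at 10 µmol/L. All cultures came from pups aged 0 to 3 days, and no group received blebbistatin without pulsing. The arrays belong to 4 separate series of isolation and culture: series 1 holds a pulsed and a nonpulsed array, series 2 and 3 hold all 3 groups, and series 4 holds a pulsed array with blebbistatin and a pulsed array. Each array carried a 1:1 pool of RNA of a duplicate experiment. Values are log2 expression values, so a difference of 1 is a doubling, and the number of arrays limits their precision.

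In the clock of mammals, the proteins CLOCK and BMAL1 (or NPAS2 in place of CLOCK) bind E-box sequences and switch on the Per, Cry, Nr1d, Dbp, Tef and Bhlhe genes. PER and CRY proteins then block CLOCK and BMAL1, which closes a loop that takes about a day, and the nuclear receptors NR1D1 and NR1D2 repress Bmal1 through ROR elements, which places Bmal1 opposite in phase to the E-box genes. Heart muscle cells carry such a clock of their own, and in culture it is set by medium changes, serum, glucocorticoid and temperature. Per1 and Per2 are also induced within the hour by glucocorticoid, calcium and cAMP signals. Each culture was sampled once, and its labels name neither the hour of harvest nor that of the last medium change. A shift of phase, a change of amplitude and a change of mean level therefore cannot be told apart in these arrays.

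Promoter sequences are shown here for the genes in whose window a motif of these loops was found. Such a match of letters does not show that the loops act there. In each, the 250 bases before the gene's start, from RefSeq on build GRCr8, run 5′ to 3′ on the gene's strand, and capitals mark the motif found. The letters searched, on both strands, were the E-box CACGTG, its variant CACGTT, the D-box TTATGTAA, which DBP and TEF bind, its looser form TTANGTAA, which includes the D-box, and TAGGTCA, the core of the ROR element. Of the 10 genes, 9 were matched in the promoter table, and Cry1 was not. Tef, Nr1d1 and Bhlhe40 hold an E-box, which begins 198, 191 and 220 bases before the start. Per2 holds the E-box variant at 62 bases and a D-box at 192 bases, and Bmal1, the partner of CLOCK, holds the ROR core at 16 bases. Tef lies on the plus strand of chr7:115206577-115206826, Nr1d1 on the minus strand of chr10:84229455-84229704, and Bhlhe40 on the plus strand of chr4:143174200-143174449. Per2 lies on the minus strand of chr9:99496994-99497243 and Bmal1 on the plus strand of chr1:176766078-176766327.
Tef: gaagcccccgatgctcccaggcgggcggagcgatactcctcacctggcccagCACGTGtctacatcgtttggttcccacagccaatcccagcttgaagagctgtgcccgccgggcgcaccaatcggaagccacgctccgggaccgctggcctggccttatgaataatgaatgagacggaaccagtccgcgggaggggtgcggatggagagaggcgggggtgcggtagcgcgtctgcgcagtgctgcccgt
Nr1d1: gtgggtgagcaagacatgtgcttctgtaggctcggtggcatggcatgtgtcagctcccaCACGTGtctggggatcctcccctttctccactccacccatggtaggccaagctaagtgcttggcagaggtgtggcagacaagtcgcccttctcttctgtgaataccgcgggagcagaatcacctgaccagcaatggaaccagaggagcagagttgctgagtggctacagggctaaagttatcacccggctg
Bhlhe40: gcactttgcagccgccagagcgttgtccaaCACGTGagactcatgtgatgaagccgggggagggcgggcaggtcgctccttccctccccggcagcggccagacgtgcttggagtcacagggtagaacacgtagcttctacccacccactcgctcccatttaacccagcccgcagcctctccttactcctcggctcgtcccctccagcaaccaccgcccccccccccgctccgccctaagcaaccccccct
Per2: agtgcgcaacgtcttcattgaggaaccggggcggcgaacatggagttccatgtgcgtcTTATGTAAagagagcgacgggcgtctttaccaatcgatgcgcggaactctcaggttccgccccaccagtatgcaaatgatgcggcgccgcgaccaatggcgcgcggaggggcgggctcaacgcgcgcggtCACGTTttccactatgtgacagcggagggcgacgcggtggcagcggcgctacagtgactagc
Bmal1: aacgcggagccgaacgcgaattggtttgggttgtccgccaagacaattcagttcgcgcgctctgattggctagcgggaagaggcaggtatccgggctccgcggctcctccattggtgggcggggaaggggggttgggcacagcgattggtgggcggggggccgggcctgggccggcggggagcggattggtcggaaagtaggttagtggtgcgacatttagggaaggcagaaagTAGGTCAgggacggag
Among 33465 rat promoter windows of this length, 5.59% held CACGTG, 4.07% CACGTT, 0.828% TTATGTAA, 2.04% TTANGTAA and 2.26% TAGGTCA. The windows of Dbp, Per1, Per3, Nr1d2 and Clock held none of these letters, which says only that they are not within these bases.

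Median log2 values of the arrays lay between 6.57 and 6.78. The heart muscle markers (7 of 8 measured, among them myosin and troponin genes), averaged over the list on each array, came to log2 values of 12.8 to 13.0 in the pulsed arrays with blebbistatin, 12.7 to 13.0 in the pulsed arrays and 12.2 to 12.8 in the nonpulsed arrays, and none lay at the lowest level. The cultures were mixed. All 8 fibroblast markers were measured, and their average per array was 10.52 to 12.2 with blebbistatin, 10.9 to 12.4 in pulsed and 10.95 to 12.3 in nonpulsed arrays. The average of the 6 smooth muscle and pericyte markers per array was 8.83 to 9.26 with blebbistatin, 9.77 to 9.97 in pulsed and 9.49 to 10.53 in nonpulsed arrays. In such bulk RNA, fewer cells of a type and less RNA per cell cannot be told apart. Clock RNA of every cell type in the dish adds to the values below.

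No clock probe set passed the threshold of an adjusted p of 0.05 in any of the 3 comparisons between groups. Where a gene has several probe sets, that of the highest mean log2 value is called its main probe set. Over the 10 arrays, the values of the main probe sets of the 10 genes spanned 0.50 to 1.67 on the log2 scale, with a median span of 0.988, against 0.721 for all probe sets tested. Dbp had the widest span and Clock the narrowest. The span of Clock lay below the 0.721 of all probe sets, and the spans of the clock genes were not tested against the others. The following paragraphs say on which arrays the values differed.

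Dbp encodes a transcription factor of the PAR bZIP family that carries the clock's rhythm to metabolic genes, and it is among the genes of widest daily swing in many tissues. Its log2 values were 6.997, 7.63 and 8.66 in the pulsed arrays with blebbistatin of series 2, 3 and 4, against 8.05, 7.65, 7.52 and 7.93 in the pulsed arrays of series 1 to 4 and 7.64, 7.49 and 7.55 in the nonpulsed arrays of series 1 to 3. The lowest and the highest Dbp value of all arrays were thus both in cultures with blebbistatin, in different series, and the groups overlapped. The fitted difference with blebbistatin against pulsing alone was 0.00 ± 0.24 (SE; limma adjusted p = 0.996), with a 95% interval of -0.55 to 0.56. That interval leaves room for changes of either sign, because the pairs pulled apart: the differences were -0.66 in series 2, 0.11 in series 3 and 0.73 in series 4.

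Tef, a second PAR bZIP factor with the same D-box target, was at 7.65, 7.41 and 7.92 with blebbistatin, against 7.20, 7.68, 6.64 and 7.69 in pulsed arrays and 7.31, 8.06 and 7.22 in nonpulsed arrays. It was lower in the pulsed than in the nonpulsed array of each of the 3 series that hold both, by log2 differences of -0.11, -0.37 and -0.58, although the groups overlapped. The fitted change was -0.35 ± 0.16 (SE; limma unadjusted p = 0.065, adjusted p = 0.566), with a 95% interval of -0.72 to 0.03. It came to -0.12 with probe sets averaged and -0.20 without the pulsed array of series 3. With blebbistatin against pulsing alone it was 0.28 ± 0.16 (SE; limma adjusted p = 0.536), and the differences were -0.03, 0.77 and 0.23 in series 2, 3 and 4. The fitted change there was 0.14 without the pulsed array of series 3 and 0.081 without the array with blebbistatin of series 3. The second Tef probe set, 1369919_at, gave 0.10 ± 0.18 for pulsing (SE), of the opposite sign, so the probe sets of the gene disagree there. The third Tef probe set, 1385374_at, did not pass the filter on low values.

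Per1, Per2 and Per3 encode the repressors of the loop. Per1 was at 5.93, 6.002 and 6.79 with blebbistatin, against 6.62, 6.33, 6.18 and 6.67 in pulsed arrays and 6.36, 6.01 and 5.89 in nonpulsed arrays. It was higher in the pulsed than in the nonpulsed array of every series, by a narrow range of 0.26, 0.32 and 0.29, but the series levels spread by more than that and the groups overlapped. The fitted change was 0.24 ± 0.11 (SE; limma unadjusted p = 0.066, adjusted p = 0.566). With blebbistatin against pulsing alone it was -0.15 ± 0.11 (SE; limma adjusted p = 0.638). The differences there were -0.40, -0.18 and 0.12 in series 2, 3 and 4.

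The main probe set of Per2, 1368303_at, was at 7.55, 7.61 and 7.74 with blebbistatin, against 7.92, 8.20, 7.83 and 8.48 in pulsed arrays and 7.69, 7.90 and 7.78 in nonpulsed arrays. All 3 arrays with blebbistatin lay below all 4 pulsed arrays, as was so, in this direction, for 1 of the 18 clock probe sets and for 3.67% of all probe sets tested, a share near that background. The differences were -0.66, -0.22 and -0.74 in series 2, 3 and 4. The fitted change was -0.54 ± 0.12 (SE; 95% interval -0.81 to -0.27; limma unadjusted p = 0.002), and it missed the threshold over all probe sets (adjusted p = 0.220). It came to -0.25 with the gene's probe sets averaged and lay between -0.66 and -0.45 on leaving out 1 array. Against nonpulsed arrays the value with blebbistatin was -0.31 ± 0.13 (SE; limma adjusted p = 0.214), or -0.029 with probe sets averaged, and these groups overlapped. The second Per2 probe set, 1378560_at, with a lower mean, did not share this: its fitted change with blebbistatin against pulsing alone was 0.05 ± 0.16 (SE), with differences of 0.37, 0.03 and -0.36. The difference seen at the main probe set was thus not seen at the second.

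Per3 was at 6.14, 5.86 and 6.79 with blebbistatin, against 6.44, 6.23, 5.65 and 6.22 in pulsed arrays and 5.55, 6.02 and 5.65 in nonpulsed arrays. Its largest difference was within series 1, where the pulsed array exceeded the nonpulsed array by 0.89, against 0.21 in series 2 and 0.00 in series 3. The fitted change for pulsing was 0.30 ± 0.20 (SE; limma adjusted p = 0.669), or 0.021 without series 1, and the second Per3 probe set, 1388239_at, gave -0.17 ± 0.15 (SE). Cry1, which encodes the PER partner that blocks CLOCK and BMAL1 most strongly and peaks later than the Per genes, was at 8.80, 8.66 and 8.23 with blebbistatin, against 7.78, 8.36, 8.57 and 8.33 in pulsed arrays and 7.67, 8.19 and 8.55 in nonpulsed arrays. Both arrays of series 1 were the lowest for Cry1. Its fitted changes were 0.14 ± 0.13 for pulsing and 0.15 ± 0.13 with blebbistatin against pulsing alone (SE; limma adjusted p = 0.748 and 0.692).

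Nr1d1 and Nr1d2 encode REV-ERB alpha and beta, the repressors of Bmal1. Nr1d1 was at 7.34, 7.46 and 8.10 with blebbistatin, against 7.81, 8.05, 7.18 and 7.36 in pulsed arrays and 7.52, 7.84 and 7.36 in nonpulsed arrays. Like Dbp, it was lower with blebbistatin in series 2 and higher in series 3 and 4, by -0.70, 0.28 and 0.74. Its fitted change of 0.05 ± 0.24 (SE; 95% interval -0.51 to 0.62; limma adjusted p = 0.947) averages over these. Nr1d2 was at 9.89, 10.00 and 10.44 with blebbistatin, against 10.02, 10.15, 9.82 and 10.01 in pulsed arrays. It was at 9.48, 9.90 and 9.78 in nonpulsed arrays. All 3 of its probe sets were lower with blebbistatin in series 2 and higher in series 3 and 4, by -0.27, 0.18 and 0.43 for the main one. For 1370541_at the difference in series 3 was only 0.006. Pulsed arrays exceeded nonpulsed arrays in all 3 series for all 3 probe sets, with fitted changes of 0.21 ± 0.15, 0.13 ± 0.15 and 0.14 ± 0.11 (SE), none past the threshold. The first of these was 0.064 without series 1.

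Bhlhe40, which encodes the repressor DEC1 that competes for E-boxes, was at 8.71, 8.97 and 9.03 with blebbistatin, against 8.81, 8.89, 9.14 and 9.71 in pulsed arrays and 8.97, 8.69 and 9.28 in nonpulsed arrays. The pulsed array of series 4 stood highest. With blebbistatin it was lower in each pair, by -0.19, -0.17 and -0.68, and the fitted change was -0.31 ± 0.14 (SE; limma unadjusted p = 0.056, adjusted p = 0.443). This rested in part on series 4: it was -0.14 on leaving out the pulsed array or the array with blebbistatin of that series. Clock, the activator, was nearly level: its main probe set was at 9.52, 9.52 and 9.12 with blebbistatin, against 9.22, 9.51, 9.62 and 9.25 in pulsed arrays and 9.25, 9.42 and 9.55 in nonpulsed arrays. Its fitted changes were 0.06 ± 0.09 for pulsing and -0.06 ± 0.09 with blebbistatin against pulsing alone (SE), and the 95% interval of the second ran from -0.27 to 0.14. Of the other 3 Clock probe sets, 1389456_at had 7.76, 7.80, 7.88 and 7.78 in pulsed arrays, all above the 7.28, 7.61 and 7.72 of nonpulsed arrays. Its fitted change was 0.28 ± 0.10 (SE; limma unadjusted p = 0.026, adjusted p = 0.494), while 1380098_at and 1369168_a_at gave -0.02 ± 0.10 and -0.09 ± 0.14 (SE).

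**Figure D1:**
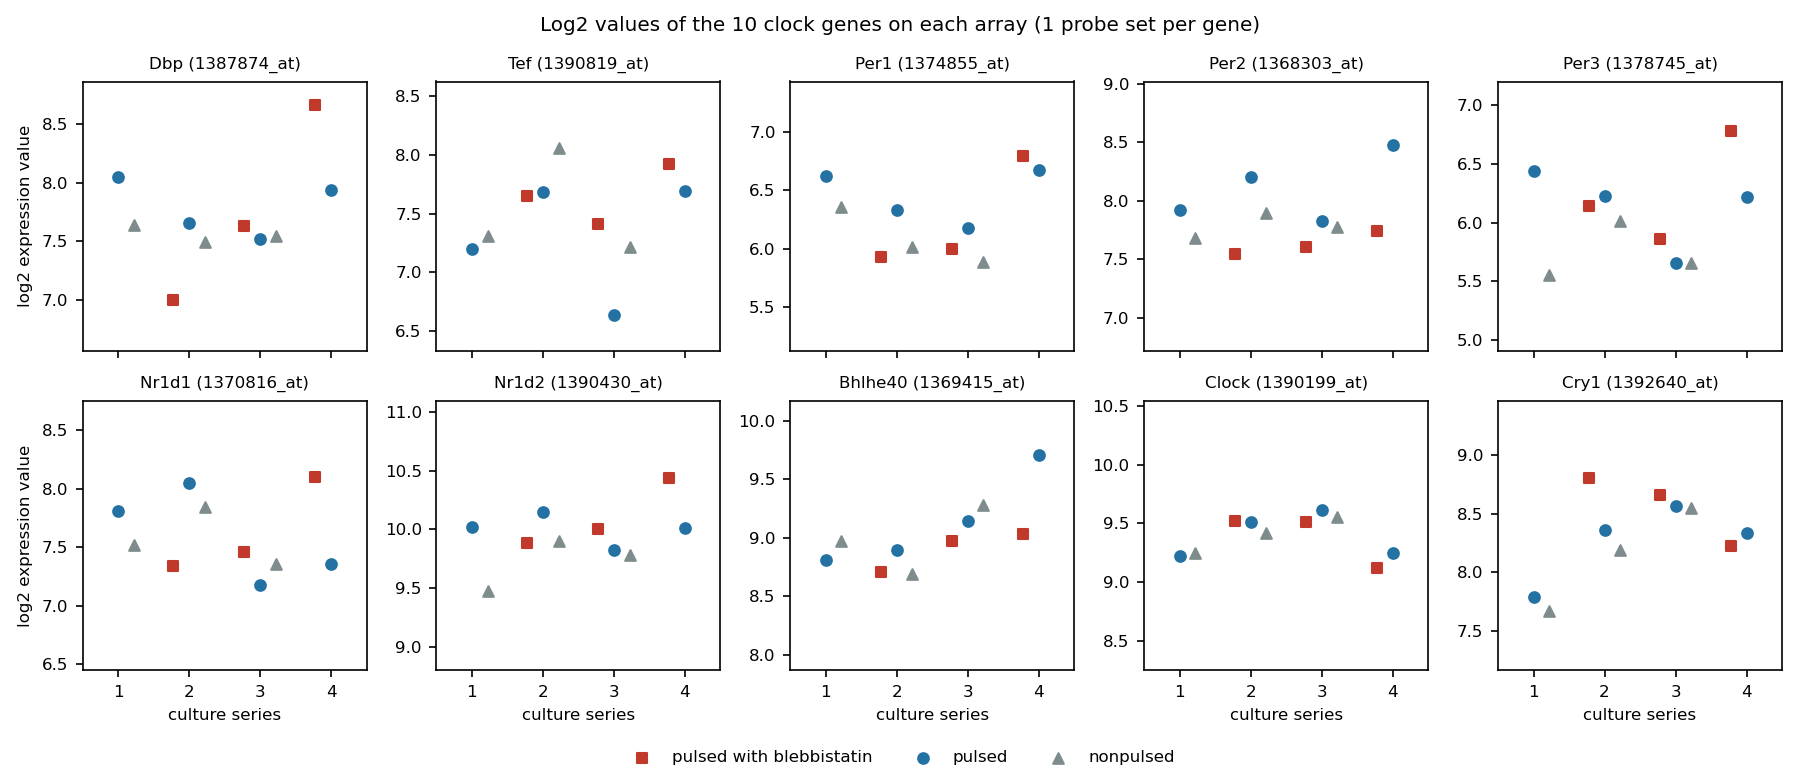
Log2 expression values of the main probe set of each of the 10 genes (vertical axis, 1 panel per gene, all panels of the same height in log2 units) by culture series (horizontal axis). Each point is 1 array: red squares are pulsed with blebbistatin, blue circles pulsed and grey triangles nonpulsed. Dbp with blebbistatin lies below the pulsed array in series 2 (6.997 and 7.65) and above it in series 4 (8.66 and 7.93), while Per2 with blebbistatin lies below the pulsed array in each series that holds both.

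Counts over the 18 clock probe sets were read against the same counts over all 23281. For pulsed against nonpulsed cultures, 0 passed the adjusted threshold in limma, as did 0% of all probe sets, and at an unadjusted p under 0.05 it was 1 (the Clock probe set 1389456_at) against 9.08% of all. In that comparison 9 of the 18 clock probe sets, of 6 genes (Per1, Per2, Per3, Nr1d2, Clock and Cry1), were higher in the pulsed array of every series, against 24.1% of all probe sets, and 1, the main Tef probe set, was lower in every series, against 10.0%. The Clock probe set 1389456_at was also the 1 clock probe set whose pulsed arrays all lay above the nonpulsed arrays, against 6.17% of all. The share at an unadjusted p under 0.05 was below that of all probe sets.

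For pulsed with blebbistatin against pulsed, 0 clock probe sets passed the adjusted threshold in limma, against 0.0129% of all, and 1 (Per2) had an unadjusted p under 0.05, against 11.6% of all. None was higher in all 3 series, against 23.5% of all probe sets, and 3 (Per2 1368303_at, Bhlhe40 and Clock 1380098_at) were lower in all 3, against 15.2%. For pulsed with blebbistatin against nonpulsed, the corresponding counts were 0 against 0.472% at the adjusted threshold and 1 (Per2) against 22.4% at an unadjusted p under 0.05. Over the 10 main probe sets, the median fitted change was 0.10 for pulsing, 0.03 with blebbistatin against pulsing alone and 0.06 with blebbistatin against no pulsing. Over all probe sets these medians were 0.04, 0.02 and 0.07. These 3 comparisons share arrays.

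**Figure D2:**
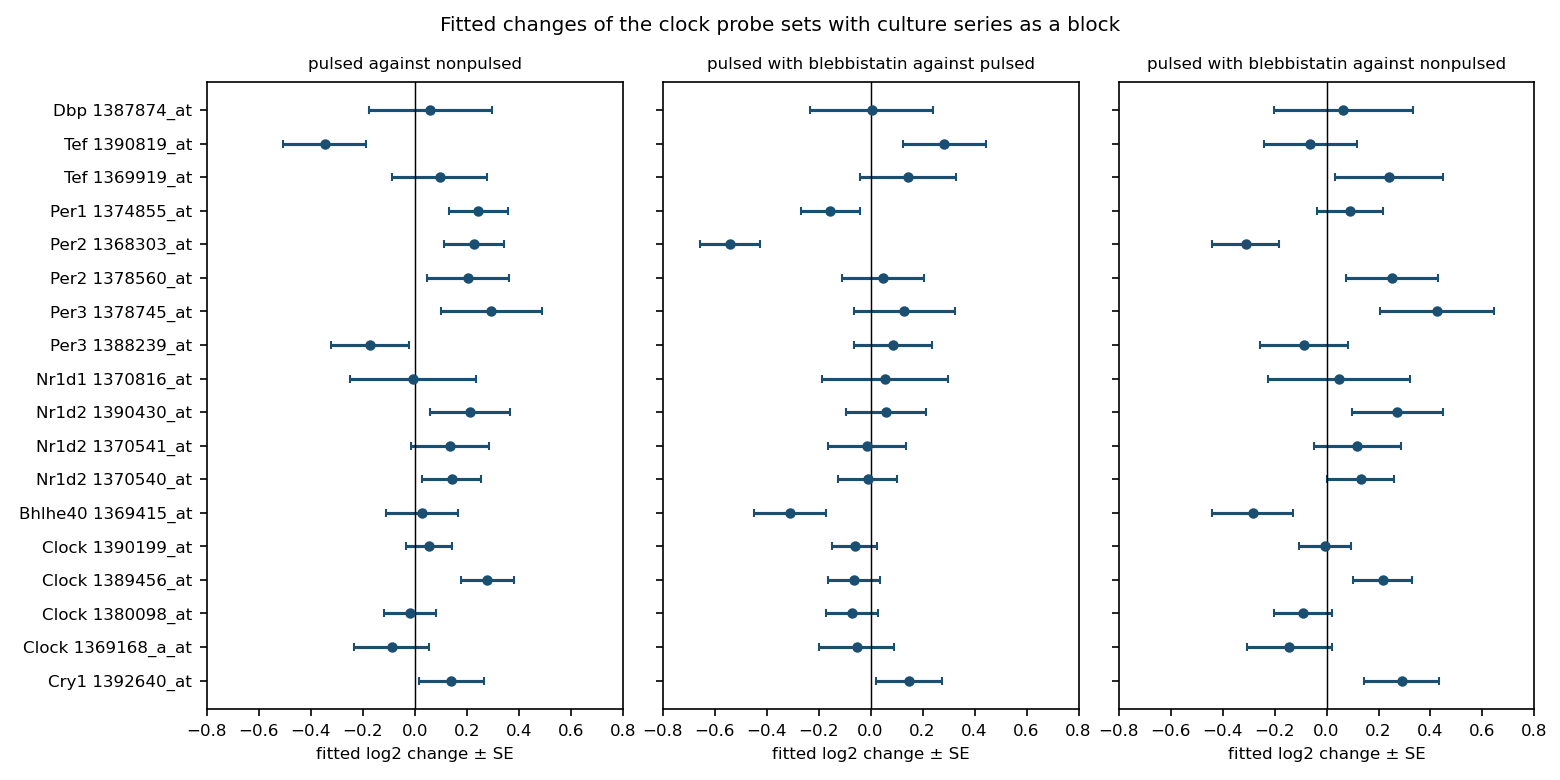
Fitted log2 changes of the 18 clock probe sets past the filter (1 row each, horizontal axis in log2 units) in the 3 comparisons between groups, from the limma fit with culture series as a block; bars are ± 1 SE. Per2 1368303_at is farthest from 0 in the middle panel, at -0.54, and no change passed the adjusted threshold.

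Whether the arrays of a series differed in clock phase was looked at through the genes that peak together and those that peak apart from them. The output arm, listed as E-box genes that peak together, was made of Dbp, Tef, Per1, Per2, Per3, Nr1d1, Nr1d2, Bhlhe40 and Bhlhe41 (9 genes past the filter). The positive arm was made of Bmal1, Clock, Npas2, Nfil3 and Cry1 (5 genes), listed as under ROR elements or opposite in phase. Its name is a short label only, since Cry1 and Nfil3 encode repressors. In series 2, the array with blebbistatin was lower than the pulsed array for 8 of the 9 output genes, all but Bhlhe41, with a median difference of -0.27, while the positive arm had a median of 0.01. In series 3 it was higher for 6 of the 9 output genes, with a median of 0.18, and lower for 4 of the 5 positive arm genes, with a median of -0.10. In series 4 it was again higher for 6 of 9, with a median of 0.23, and lower for 4 of 5, with a median of -0.13. The output median minus the positive median thus came to -0.28, 0.28 and 0.36 in series 2, 3 and 4. With the probe sets of a gene averaged it was -0.18, 0.11 and 0.38. Of all probe sets, 54.5%, 52.8% and 57.5% were higher with blebbistatin in these pairs. The output median turned in sign between series 2 and the others, while the positive median, at 0.01 in series 2, was nearly level there. A share of all probe sets is not a like measure for a median over 9 chosen genes. Whether the turn was particular to the clock genes was not tested.

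Among the main probe sets, those of Dbp, Nr1d1 and Nr1d2 turned most clearly, while those of Tef and Per3 differed by only -0.03 and -0.08 in series 2. The second Tef probe set, 1369919_at, turned by -0.28, 0.57 and 0.28. The Nr1d2 probe set 1370541_at was at -0.33, 0.006 and 0.41, so nearly level in series 3. The second Per3 probe set, 1388239_at, did not turn, at 0.11, -0.003 and 0.14. Of the 18 clock probe sets, 8 (of these 5 genes) were lower with blebbistatin in series 2 and higher in series 3 and 4, against 14.6% of all probe sets. Dbp and Nr1d1 moved by more than 0.5 (1.41-fold) down in series 2 and up in series 4, which 0.627% of all probe sets did. These patterns and the step of 0.5 were chosen after the values were seen, and with 1 array per group and series they have no test. Per2 and Bhlhe40 stayed outside the pattern, lower with blebbistatin in series 4 (-0.74 and -0.68), where Dbp, Nr1d1 and Per3 were higher by 0.73, 0.74 and 0.57. Per1 stayed outside it too, at -0.40, -0.18 and 0.12 in series 2, 3 and 4. Bhlhe41, which encodes DEC2, was opposite in sign to Dbp in series 2 and 4 (0.56 and -0.73) and of the same sign in series 3 (0.43).

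**Figure D3:**
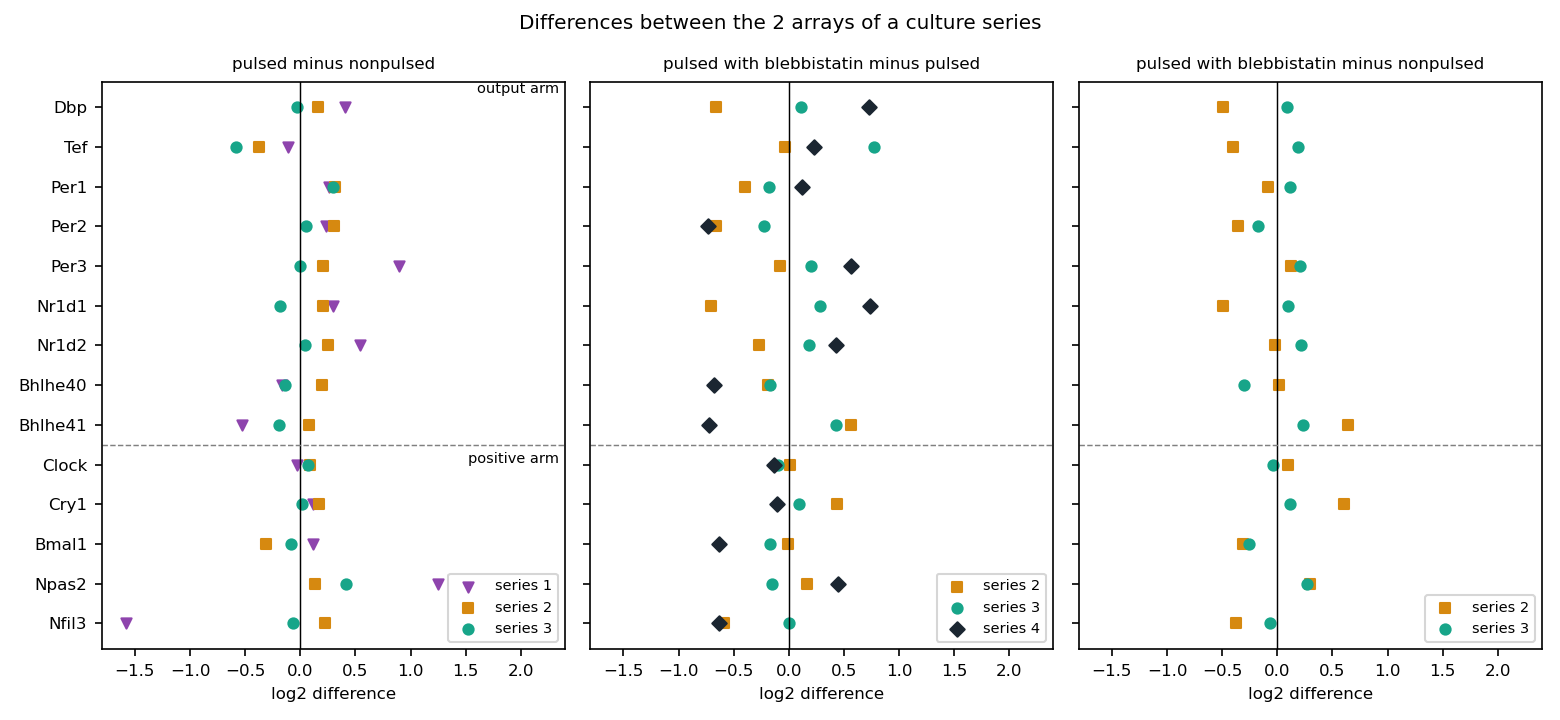
Differences in log2 value between the 2 arrays of a culture series for the 14 genes of the output arm (above the dashed line) and the positive arm (below it), for the 3 pairs of groups. Purple triangles are series 1, orange squares series 2, green circles series 3 and black diamonds series 4. In the middle panel Dbp and Nr1d1 lie at -0.66 and -0.70 in series 2 and at 0.73 and 0.74 in series 4, while Per2 lies below 0 in each series.

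Pulsed and nonpulsed arrays of a series differed less between the arms. Subtracting the positive median from the output median gave 0.15, 0.07 and -0.05 in series 1, 2 and 3, the last of which was 0.039 with probe sets averaged. In series 1 and 2 the median of the output arm was 0.26 and 0.21, with 6 and 8 of 9 genes higher, and the positive arm had 0.11 and 0.14. Of all probe sets, 62.8% and 57.5% were higher in those pairs, with medians of 0.10 and 0.04. In series 1 the count of output genes and the positive arm's median were thus close to those of all probe sets. In series 3 the medians were -0.03 and 0.02. For pulsed with blebbistatin against nonpulsed, the arm difference was -0.18 in series 2 and 0.15 in series 3. Series 1 was also where pulsing went with the largest difference in the heart muscle markers, with a median of 0.80, against 0.25 in series 2 and 0.05 in series 3. The part of cell makeup in the clock values was not tested.

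The cell markers moved with blebbistatin too. In series 2, 3 and 4 the median difference with blebbistatin against pulsing alone was -0.10, 0.10 and 0.13 for the 7 heart muscle markers, -0.40, -0.24 and -0.18 for the 8 fibroblast markers and -0.51, -0.85 and -0.89 for the 6 smooth muscle and pericyte markers. The 6 macrophage and leukocyte markers past the filter had medians of -0.38, 0.01 and -0.79, and the 4 endothelial markers -0.20, -0.22 and -0.24. The main Per2 probe set (-0.66, -0.22 and -0.74) and the macrophage markers were both lower in series 2 and 4 than in series 3, an order picked out after the values were seen. The second Per2 probe set (0.37, 0.03 and -0.36) did not have this order, nor did the medians of the other marker lists given here. The 3′ minus 5′ difference of the array controls, which reports on RNA breakdown, shifted by 0.13, 0.09 and 0.05 for GAPDH and by 0.09, 0.04 and -0.03 for beta-actin in these pairs. The heart muscle markers changed sign between series 2 and the others, as Dbp and Nr1d1 did, though by less. The part of these markers in the clock values was not tested.

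Set out array by array, with each gene centred on its mean, the output arm's median minus the positive arm's was -0.33, -0.17 and 0.63 with blebbistatin in series 2, 3 and 4. It was 0.34, 0.12, -0.41 and 0.14 in pulsed arrays of series 1 to 4 and 0.30, -0.07 and -0.32 in nonpulsed arrays of series 1 to 3. All arrays of series 3 lay below 0, all of series 1 and 4 above it, and series 2 held both signs. Within a series the widest spread was that between blebbistatin and pulsing alone in series 4, at 0.63 against 0.14.

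**Figure D4:**
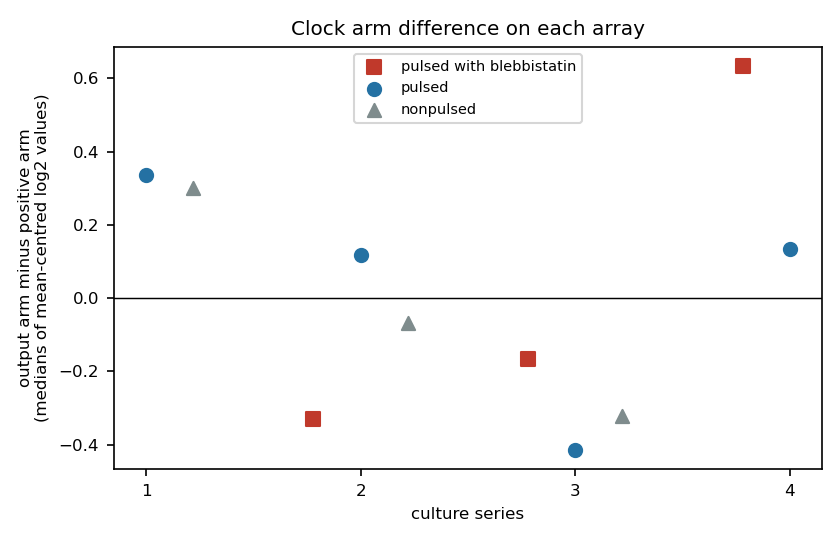
Median centred log2 value of the 9 output arm genes minus that of the 5 positive arm genes (vertical axis, log2 units) on each of the 10 arrays, by culture series (horizontal axis). Red squares are pulsed with blebbistatin, blue circles pulsed and grey triangles nonpulsed. The array with blebbistatin is below the pulsed one in series 2 (-0.33 and 0.12) and above it in series 3 (-0.17 and -0.41) and series 4 (0.63 and 0.14).

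Differences between culture series were tested in the same fit, at equal treatment, with an F-test over the series terms. Of the 18 clock probe sets 0 passed the adjusted threshold, against 8.09% of all, and 7 of 5 genes (Tef, Per1, Bhlhe40, Clock and Cry1) had an unadjusted p under 0.05, against 28.4% of all. Cry1 came to 0.65, 0.79 and 0.41 above series 1 in series 2, 3 and 4 (limma adjusted p = 0.0547). Per1 was at -0.39, -0.46 and 0.20 relative to series 1 (limma adjusted p = 0.05002), which fell just short.

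The other genes of the clock were taken from a list of 20, of which 16 were measured and 14 passed the filter, and none of them passed the adjusted threshold of limma in any comparison between groups. At an unadjusted p under 0.05, 3 of the 14 were higher and 0 lower in pulsed against nonpulsed cultures, against 7.71% and 1.36% of all probe sets. In that comparison the largest changes were those of Prkaa2, which encodes a catalytic subunit of AMP kinase that marks CRY1 for breakdown, at 0.63 ± 0.24, Npas2 at 0.53 ± 0.22, Usp2, a rhythmic deubiquitinase, at 0.45 ± 0.15, Nfil3, the repressor at D-boxes, at -0.41 ± 0.32, and Btrc, a ubiquitin ligase subunit that removes PER, at -0.18 ± 0.11 (SE). Nfil3 rested on series 1, at -1.58, with 0.22 and -0.07 in series 2 and 3, and the differences of Prkaa2 and Npas2 were also largest in series 1, at 1.47 and 1.25. With blebbistatin against pulsing alone, Bmal1 was at -0.30 ± 0.13 (SE; limma adjusted p = 0.449), with differences of -0.004, -0.17 and -0.63 in series 2, 3 and 4. Usp2 (0.23 ± 0.15), Nfil3 (-0.21 ± 0.32), Prkaa2 (0.20 ± 0.24) and Bhlhe41 (0.17 ± 0.26) followed in size. With blebbistatin against no pulsing, the order was Prkaa2 at 0.83, Usp2 at 0.67, Nfil3 at -0.62, Npas2 at 0.57 and Bmal1 at -0.33. Among these genes Csnk1e, a kinase that acts on PER proteins, passed the F-test for culture series (limma adjusted p = 0.036), a call lost with probe sets averaged (0.129), under median centring (0.095) or quantile normalization (0.0747), and on leaving out any array but the pulsed one of series 1 (up to 0.115).

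Genes that the clock is known to drive in the heart were measured in full, 10 of 10. The list was chosen with earlier results of these data known. Between pulsed with blebbistatin and nonpulsed cultures 9 of them had positive changes, with a median of 0.59 against 0.07 over all probe sets. Of the 10, 1 passed, against 0.472% of all probe sets. Of all probe sets, 58% and 55.4% were higher with blebbistatin in the pairs of series 2 and 3. Heart muscle markers had a median of 0.40 in the same comparison, with 6 of 7 positive, fibroblast markers -0.24 and smooth muscle and pericyte markers -0.85, and the part of cell makeup was not tested. The gene that passed was Kcnip2, the subunit of the transient outward potassium channel whose rhythm depends on KLF15 in mice, which was 2.91 ± 0.32 higher on the log2 scale (SE; limma adjusted p = 0.028). This call held in 13 of 26 alternatives, with values of 2.03 to 3.81. It was lost without the array with blebbistatin of series 2 (adjusted p = 0.143) or 3 (0.154), the pulsed array of series 2 (0.0718) or 3 (0.0606), or the nonpulsed array of series 2 (0.157). The call was also lost in the alternatives without series 2, 3 or 4, each of which left out 1 array of another series as well. Without the pulsed array or the array with blebbistatin of series 4 alone it held (limma adjusted p = 0.0477). Kcnip2 changes were 1.59 ± 0.29 for pulsing and 1.32 ± 0.29 with blebbistatin against pulsing alone (SE), which did not pass. Klf15, the transcription factor itself, had changes of 1.35 ± 0.30 in that comparison, 0.59 ± 0.27 with blebbistatin against pulsing alone and 0.77 ± 0.27 for pulsing (SE; limma adjusted p = 0.084, 0.449 and 0.494). Both kept 1 sign in every series, in which they differed from Dbp: Kcnip2 was higher with blebbistatin than with pulsing alone by 1.92, 1.62 and 0.69 in series 2, 3 and 4, and Klf15 by 0.48, 0.51 and 1.21. Ucp3, the mitochondrial uncoupling protein, was second in size with blebbistatin against pulsing alone, at 0.79 ± 0.56 (SE), and rested on series 2, at 2.81, with -0.04 and -0.43 in series 3 and 4. The list's median was 0.22 for pulsing and 0.29 with blebbistatin against pulsing alone, with 9 of 10 positive in each and 0 passing. Over all probe sets these medians were 0.04 and 0.02, with 0% and 0.0129% passing.

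The signals that also induce Per1 and Per2 were followed through their other targets. Of the 6 glucocorticoid targets listed 5 were measured, and 0 passed in any comparison, with medians of 0.04 for pulsing, -0.16 with blebbistatin against pulsing alone and 0.08 with blebbistatin against no pulsing. Largest were Pik3r1 at 0.24 and Tsc22d3 at 0.14 for pulsing, Klf9 at -0.32 and Sgk1 at -0.26 with blebbistatin against pulsing alone, and Klf9 at -0.28 and Sgk1 at -0.27 with blebbistatin against no pulsing. Of the 10 immediate early genes, which calcium, cAMP and serum switch on, 9 were negative with blebbistatin against pulsing alone, and 0 passed. Their median was -0.23, against 0.02 over all probe sets, of which 0.0129% passed. The largest were Dusp1, a phosphatase of MAP kinases, at -0.87 ± 0.23, and Junb at -0.79 ± 0.34 (SE; limma adjusted p = 0.298 and 0.440). Dusp1 and Junb were named for their size in this same comparison, and both were lower in each pair, as were 15.2% of all probe sets. In series 2, 3 and 4 Dusp1 differed by -1.37, -0.61 and -0.97 and Junb by -0.63, -0.38 and -1.81. The main Per2 probe set had -0.66, -0.22 and -0.74, and the second had 0.37, 0.03 and -0.36. The immediate early list had a median of -0.09 for pulsing, with Fosb at -0.56 and Atf3 at -0.44, and of -0.35 with blebbistatin against no pulsing, with Dusp1 at -1.03 and Nr4a1 at -0.90. Whether these signals took part in the Per2 values was not tested.

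The genes whose values ran most like Dbp over the 10 arrays, among 11836 genes, were Akr1e2 (Pearson r = 0.979), Txndc15 (0.962), Washc3 (0.955), Tmem106c (0.944) and Tmem218 (0.941). Those that ran most against it were Anxa3 (-0.972), Ppme1 (-0.948), F2rl1 (-0.944), Efr3b (-0.943) and Nrip3 (-0.943). Within the clock, Dbp ran with Per1 (0.849), Per3 (0.649), Nr1d2 (0.638) and Nr1d1 (0.582), but also with Npas2 of the positive arm (0.643). Its r with the output genes Bhlhe40, Per2, Tef and Bhlhe41 was 0.285, 0.264, 0.207 and 0.103. In the positive arm it was -0.776 for Clock, -0.663 for Bmal1, -0.457 for Cry1 and -0.171 for Nfil3. For Nr1d1 the highest were Scfd2 (0.922), Hmgb3 (0.921), Tmem130 (0.894), Ndrg3 (0.872) and Fbxo8 (0.869), and the lowest Lpp (-0.912), Plin2 (-0.905), Ankrd27 (-0.898), Sipa1l3 (-0.884) and Kctd5 (-0.875). These are the extremes of many genes over 10 arrays that share cultures within a series, and they are a description only.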

How the data were processed

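Total RNA of the cultures was hybridised, as biotin-labelled cRNA, to Affymetrix rat arrays, per the labels' protocols. The authors deposited 1 log2 value per probe set and array; per the submitters' processing notes PLIER and Affymetrix Expression Console 1.1 were used. No source used here states their settings or the log base. That base was read as 2 because the lowest level of the arrays is then 10 to 10.97 on the linear scale. Between 1988 and 2276 probe sets per array share that level, where differences are compressed. Arrays differed by at most 0.263 at equal rank, so no scaling was added. Of 31099 probe sets, 57 controls were left out, as was the lowest 25% by mean log2 value (below 5.09), which kept 23281. The platform annotation, which can be old, gave 1 symbol to 20826 probe sets.

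Groups came from the treatment in the labels and the 4 culture series from the titles. The design text speaks of 3 arrays per treatment, while the labels give 4 pulsed arrays, and all were used. Limma 3.58.1 (R 4.3.3) was fitted to the 10 arrays with the series as fixed block terms, which left 4 residual degrees of freedom. Tests were two-sided, with Benjamini-Hochberg adjustment across the 23281 probe sets and a threshold of 0.05. A fitted change also draws on the third group, so it can differ from the mean of the differences within series. The series pair the arrays by the titles: deviations of same-series arrays from their group means correlated at 0.353 to 0.633 in 8 pairs, against a median of -0.256 in 25 other pairs, a contrast that centring on group means partly builds in. With the series as block terms, p-values measure how far differences within series vary, between pooled samples whose animals are not described.

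All probe sets of the 10 genes are named or counted. Of the lists of other clock genes, clock-driven heart genes, glucocorticoid targets and immediate early genes, the members that passed and those of largest change (5 for the first list, 2 for the others) are named. The members and lists were chosen with earlier results of these data known. Alternatives covered the block, the samples in the fit, scaling, filters, probe set rules, the variance prior and a minimum fold change of 1.2, and statmod 1.5.0 served the random block. The procedure was tested on simulated data.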

Additional observations from a re-analysis of the deposited data

How the results depend on the processing

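No clock gene passed the adjusted threshold of limma in a comparison between groups under any alternative run. Of 942 values of single clock genes under an alternative, 844 kept direction and side of the threshold, 7 newly passed, all in the F-test for culture series, and 91 changed sign, 62 of them to within 0.1 of 0. What limits these values is 10 arrays with 4 residual degrees of freedom and 1 array per group and series.

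With pulsing, Bhlhe40 came to -0.044 under median centring, -0.033 with only shared series or the 2 groups and -0.029 under quantile normalization; Clock to -0.016 under centring and -0.0069 with no replicate block; Dbp to -0.012 under centring and -0.0050 under quantile normalization; and Nr1d1 to 0.027 with no replicate block, 0.11 with only shared series or the 2 groups and 0.0069 with a random replicate block. With blebbistatin against no pulsing, Clock came to 0.031 with only shared series or the 2 groups; Dbp to -0.019 under centring, -0.022 under quantile normalization and -0.20 with only shared series or the 2 groups; Nr1d1 to -0.036, -0.044 and -0.20 under the same settings; and Tef to 0.089 with probe sets averaged, 0.13 with no replicate block and 0.033 with a random block. With blebbistatin against pulsing, Dbp came to -0.0076 under centring, -0.024 with no replicate block, -0.017 under quantile normalization and -0.0012 with a random block.

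The ranges below are over runs that left out an array or a series. Those without series 2, 3 or 4 each left out 1 array of another series as well. They are thus not runs without 1 series alone. For pulsing, the values without series 3 were the differences within series 1. These are the upper ends for Dbp, Nr1d1, Nr1d2 and Per3 and the lower ends for Bhlhe40 and Clock. Leaving out in this way gave, with pulsing, -0.16 to 0.12 for Bhlhe40, -0.025 to 0.092 for Clock and -0.18 to 0.41 for Dbp. It gave -0.30 to 0.30 for Nr1d1, -0.024 to 0.54 for Nr1d2 and -0.089 to 0.89 for Per3. With blebbistatin against no pulsing it gave -0.088 to 0.017 for Clock, -0.15 to 0.45 for Dbp, -0.15 to 0.46 for Nr1d1 and -0.30 to 0.15 for Tef. With blebbistatin against pulsing it gave -0.019 to 0.26 for Cry1, -0.33 to 0.42 for Dbp, -0.26 to 0.51 for Nr1d1, -0.11 to 0.30 for Nr1d2 and -0.12 to 0.39 for Per3.

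Over all probe sets, 110 passed with blebbistatin against no pulsing. This was 63 with 1 probe set per gene, 216 with a trended prior, 70 with the lowest 50% left out, 56 with probe sets averaged, 1 with no filter, 46 with no replicate block, 31 with only shared series, 2 with only the 2 groups, 67 under quantile normalization, 1212 with a random replicate block, 1 with a minimum fold change and 0 to 69 on leaving out. With blebbistatin against pulsing, the 3 that passed became 10 with a trended prior, 6 with the lowest 50% left out, 0 with no filter, 5 with no replicate block, 48 with only shared series, 12 with only the 2 groups, 14 with a random block, 1 with a minimum fold change and 0 to 48 on leaving out. For culture series, 1884 passed and 330 to 1854 on leaving out; of the clock probe sets 0 passed, but 1 did with a trended prior, the lowest 50% left out, probe sets averaged, centring or quantile normalization, and 0 to 1 on leaving out. The median arm difference over all series was 0.07 for pulsing, -0.015 with blebbistatin against no pulsing and 0.28 with blebbistatin against pulsing. When a series was left out, it ran from 0.01 to 0.11, from -0.18 to 0.15 and from 0.00 to 0.32, in that order. With blebbistatin against pulsing it fell to 0.043 without series 3 and to 0.003 without series 4. Kcnip2 passed in 13 of 26 alternatives; beside those that leave out arrays or series, it missed the threshold with probe sets averaged (adjusted p = 0.0501), no filter (0.0704), no replicate block (0.0796), only the 2 groups (0.052) and a minimum fold change (0.055). The cause of these shifts was not tested.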
